A study of Mus musculus with 12 samples.

Results

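The mRNAs of 8 CXC chemokines, Cxcl1, Cxcl2, Cxcl3, Cxcl5, Cxcl9, Cxcl10, Cxcl11 and Cxcl16, were examined in RNA-seq data of bone marrow-derived dendritic cells (BMDCs). These genes were picked by symbol among the 41709 genes counted in each library. All BMDCs came from mice homozygous for a CD18 allele (gene Itgb2) with a floxed exon 3, made in C57BL/6N embryonic stem cells. CD18fl/fl mice lacked Cre, whereas CD18CD11c cKO mice (CD18ΔCD11c in the labels) expressed Cre from the CD11c promoter, so that CD18 is lost in cells that have switched on CD11c. Bone marrow was kept in GM-CSF for 10 days, and BMDCs were left untreated or received 100 ng/mL LPS for 24 h per the labels (overnight per the study's methods), followed by magnetic isolation of MHCII+ cells. Each of the 4 groups held 3 libraries, numbered 1 to 3. The age of the mice and the number of animals behind a library are not given in the sources used here.

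Chemokines are small secreted proteins that attract leukocytes through G protein-coupled receptors. Cxcl1, Cxcl2, Cxcl3 and Cxcl5 carry the ELR (Glu-Leu-Arg) motif, bind Cxcr2 and recruit neutrophils, and their genes are classical targets of NF-κB downstream of the LPS receptor Tlr4. Cxcl9, Cxcl10 and Cxcl11 lack this motif, are induced by interferons and attract activated T cells and NK cells via Cxcr3. Cxcl16 is made as a membrane protein of dendritic cells and macrophages, binds Cxcr6 and takes up oxidized lipoproteins as a scavenger receptor until it is cleaved off by Adam10 or Adam17.

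On GRCm39, the build whose positions the counts carry, 7 of the genes lie on chromosome 5 and Cxcl16 lies on chromosome 11. The ELR ligands follow each other on the plus strand, with Cxcl5 at chr5:90907219-90909483, Cxcl3 at chr5:90933962-90937459, Cxcl1 at chr5:91039100-91040974 and Cxcl2 at chr5:91051730-91053797. The Cxcr3 ligands form a second cluster on the minus strand, with Cxcl9 at chr5:92469206-92475938, Cxcl10 at chr5:92494497-92496748 and Cxcl11 at chr5:92507403-92513344. Cxcl11 is annotated as a polymorphic pseudogene, a class for genes that are intact in some strains and disrupted in others. Whether its allele is intact in these mice is not given in the sources used here. Its reads therefore do not show that a working chemokine is made. The gene Art3 spans Cxcl10 and Cxcl11 on the other strand and had between 0 and 14 reads per library. Cxcl16 (chr11:70344809-70350810, minus strand) shares 552 bases with Zmynd15 on the other strand, which had 134 to 5486 reads. Whether counting used the strand is not given in the sources used here. Between 11.6% and 14.9% of the Cxcl16 reads of a group were not counted as unique gene reads. This share was at most 0.652% for Cxcl1, Cxcl2 and Cxcl3, which resemble each other in sequence, and 7.41% for Cxcl10 in untreated CD18fl/fl BMDCs. Whether such reads mapped to several places or to overlapping genes is not given in the sources used here.

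The promoters are shown because these neighbouring genes moved with LPS but not in the same libraries. RefSeq promoter sequences were at hand for 5 of the 8 genes, Cxcl1, Cxcl2, Cxcl3, Cxcl9 and Cxcl10. They are printed as the 250 bases before the annotated start, 5′ to 3′ on the gene's strand, with positions on GRCm38.p6, an earlier build than that of the counts. These windows were chr5:90890995-90891244 for Cxcl1, chr5:90903649-90903898 for Cxcl2 and chr5:90785851-90786100 for Cxcl3, all on the plus strand, and chr5:92328080-92328329 for Cxcl9 and chr5:92348890-92349139 for Cxcl10 on the minus strand. Capitals mark matches, on either strand, to an NF-κB-like motif (GGGNNNTTCC), an interferon response element (GAAANNGAAA) or a STAT site (TTCNNNGAA), where N is any base.
Cxcl1: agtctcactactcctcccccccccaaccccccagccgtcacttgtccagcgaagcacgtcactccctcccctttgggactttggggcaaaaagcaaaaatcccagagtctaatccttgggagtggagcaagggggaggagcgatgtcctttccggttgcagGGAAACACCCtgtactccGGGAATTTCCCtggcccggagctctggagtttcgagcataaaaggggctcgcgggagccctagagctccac
Cxcl2: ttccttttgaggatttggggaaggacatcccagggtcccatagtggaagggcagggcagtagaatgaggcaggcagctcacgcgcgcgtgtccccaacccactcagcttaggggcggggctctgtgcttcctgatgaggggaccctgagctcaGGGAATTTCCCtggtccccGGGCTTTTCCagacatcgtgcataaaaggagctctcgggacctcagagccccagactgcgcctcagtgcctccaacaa
Cxcl3: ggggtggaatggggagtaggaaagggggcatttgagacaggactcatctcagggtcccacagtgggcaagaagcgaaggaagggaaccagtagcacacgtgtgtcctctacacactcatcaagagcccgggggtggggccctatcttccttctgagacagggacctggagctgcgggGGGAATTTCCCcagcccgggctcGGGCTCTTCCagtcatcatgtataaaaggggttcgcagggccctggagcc
Cxcl9: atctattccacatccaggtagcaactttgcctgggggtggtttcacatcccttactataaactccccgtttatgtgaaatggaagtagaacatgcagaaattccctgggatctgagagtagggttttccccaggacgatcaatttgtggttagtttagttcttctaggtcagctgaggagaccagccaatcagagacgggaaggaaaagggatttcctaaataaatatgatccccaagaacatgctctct
Cxcl10: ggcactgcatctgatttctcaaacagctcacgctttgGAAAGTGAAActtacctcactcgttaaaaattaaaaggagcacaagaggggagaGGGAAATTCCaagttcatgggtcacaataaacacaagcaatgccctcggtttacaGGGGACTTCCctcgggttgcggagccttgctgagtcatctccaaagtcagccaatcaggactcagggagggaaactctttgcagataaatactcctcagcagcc
The NF-κB-like motif occurred in the windows of Cxcl1, Cxcl2, Cxcl3 and Cxcl10 and in 4.65% of all 32851 RefSeq promoters of this length. The 3 ELR genes shared the run GGGAATTTCC, which began 71 bases before the start of Cxcl1, 97 before that of Cxcl2 and 73 before that of Cxcl3. A C follows it in each of them, so that the other strand matches as well, shifted by a base. A further match stood close by, as GGGCTTTTCC in Cxcl2, GGGCTCTTCC in Cxcl3 and GGAAACACCC in Cxcl1. Cxcl10 held GGGAAATTCC, GGGGACTTCC and, 213 bases before its start, the interferon response element as GAAAGTGAAA, which occurred in 2.98% of all promoters. No capitals stand in the Cxcl9 window, and the STAT motif, which occurred in 7.02% of all promoters, was in none of the 5 windows. This covers only exact matches to the 3 fixed patterns within 250 bases. The Cxcl9 window holds runs such as gggatttcc, which is a base shorter than the NF-κB-like pattern and so could not match it. No match overlapped a match to another of the 3 motifs. Such matches describe letters, and binding was not measured.

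Depth was similar between libraries, at 29689149 to 34037178 total gene reads. Levels are given as CPM, the usual depth-scaled count, after TMM normalization, and 3 reads, taken as the floor, correspond to 0.0752 to 0.135 CPM. Because PCR copies were not marked with molecular identifiers, floors and intervals cover counting error only. Itgb2, the targeted gene, amounted to 382, 420.2 and 379 CPM in untreated CD18fl/fl libraries and to 120.5, 163 and 189 CPM in untreated CD18CD11c cKO libraries, and to 167, 171 and 267 against 114, 89.7 and 119 CPM after LPS. All 9 dendritic cell markers (Itgax, Flt3, Zbtb46, H2-Ab1, H2-Aa, Cd74, Ccr7, Cd209a, Ciita) were detected in each group, and their summed level ranged from 12725 to 33333 CPM. The replicate 3 libraries of all groups stood apart from replicates 1 and 2, also in the chemokines. Summed markers of mast cells and basophils reached 15.6 to 117 CPM in replicate 3 and 0.483 to 11.6 CPM elsewhere, whereas those of B cells were 0.636 to 2.54 CPM in replicate 3 and 8.64 to 138 CPM elsewhere. The 9 neutrophil markers (led by S100a8 and S100a9) summed to 1321 CPM in untreated CD18fl/fl replicate 1 and to 8.82 to 194 CPM in the other 11 libraries, while Elane, Mpo and Retnlg were at 0 in all LPS-treated CD18CD11c cKO libraries. Macrophage markers summed to between 423 and 2140 CPM, and Cd163 was at 0 in both LPS-treated groups. T cell and NK cell markers reached at most 26.7 and 2.08 CPM. Stromal markers reached 37.7 CPM in LPS-treated CD18fl/fl replicate 2, with Lum and Dcn detected and collagen genes at or near 0, and endothelial markers reached 94.1 CPM in replicate 3 of that group, nearly all from Kdr and Pecam1. The part of these other cells in the results was not tested. In bulk RNA, fewer producing cells and less mRNA per cell cannot be told apart. Results are given from all libraries without a block, with the replicate number as a block (same-numbered libraries are treated as pairs), and without replicate 3.

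Among the CXC chemokines, Cxcl16 mRNA was the most abundant per length in every group. Its mean level was 227 CPM per kb of exon ± 111 (SD, n = 3) in untreated CD18fl/fl BMDCs, 762 ± 402 with LPS, 293 ± 131 in untreated CD18CD11c cKO BMDCs and 821 ± 352 with LPS. It ranked above the next gene in all 3 libraries of both CD18CD11c cKO groups without overlap, whereas in both CD18fl/fl groups Cxcl3 exceeded it in replicate 3. The ELR ligands Cxcl1, Cxcl2 and Cxcl3 came next, and their order depended on the library. In untreated CD18fl/fl BMDCs, mean levels per length were 48.4 CPM per kb for Cxcl3, 12.2 for Cxcl2 and 4.95 for Cxcl1, and the ranges of Cxcl3 and Cxcl2 overlapped. In LPS-treated CD18CD11c cKO BMDCs they were 206 for Cxcl1, 155 for Cxcl3 and 124 for Cxcl2, all overlapping. Cxcl10 followed, at 0.922 and 0.587 CPM per kb in untreated and at 32.9 and 22.1 in LPS-treated CD18fl/fl and CD18CD11c cKO BMDCs, respectively. Cxcl5, Cxcl9 and Cxcl11 were the least abundant per length in all groups, with overlapping neighbours in the order, and with LPS had means of 8.35 CPM per kb or less.

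**Figure D1:**
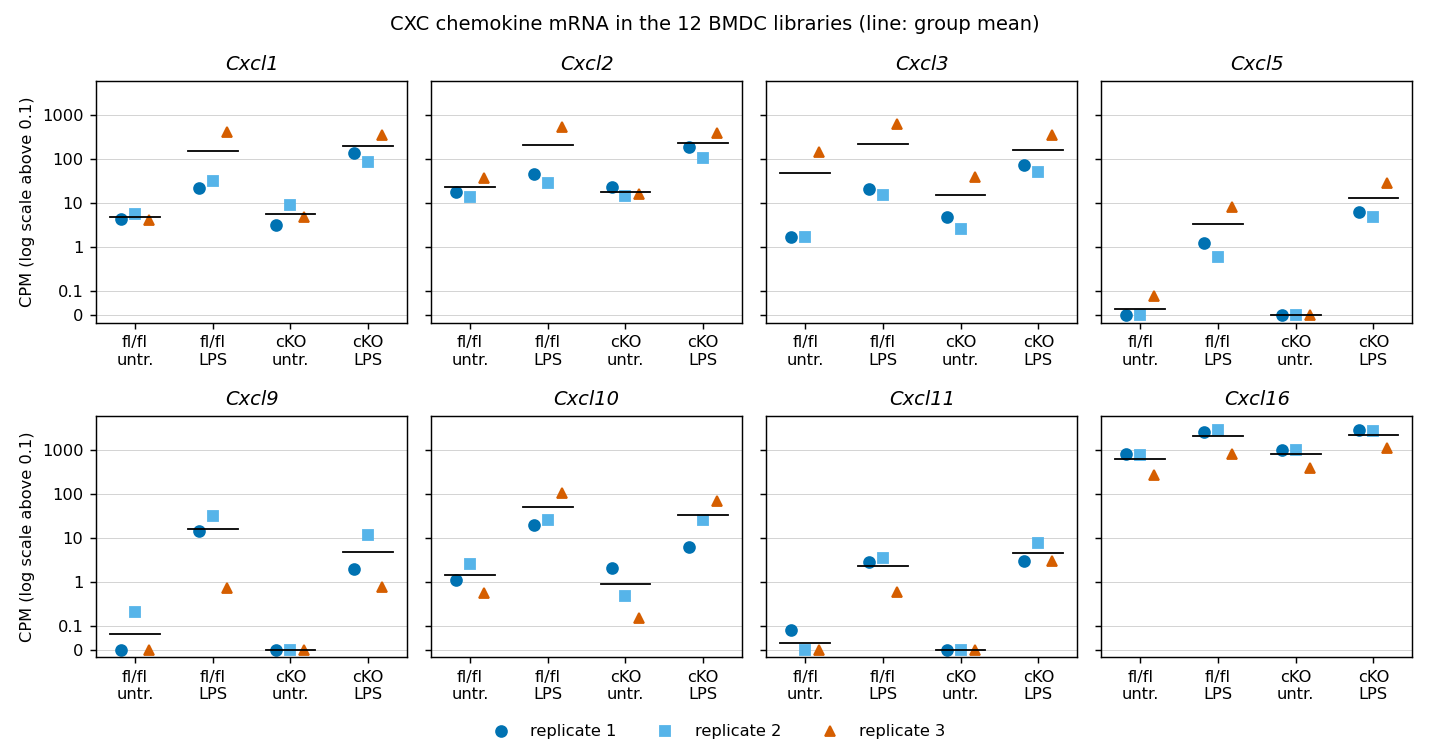
Level of each CXC chemokine mRNA in CPM (vertical axis, logarithmic above 0.1 and linear below) in the 4 groups (horizontal axis). Circles, squares and triangles are replicates 1, 2 and 3, and horizontal lines are group means. Replicate 3 (triangles) is the highest LPS-treated library for Cxcl1, Cxcl2, Cxcl3, Cxcl5 and Cxcl10 and the lowest for Cxcl9 and Cxcl16.

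The response to LPS was examined separately in each genotype. All 8 chemokines had higher mean levels with LPS than without it, but how many passed the test depended on how replicate 3 was treated. Cxcl1, a ligand of Cxcr2, was at 4.33, 5.77 and 4.06 CPM (replicates 1, 2 and 3) in untreated CD18fl/fl BMDCs and at 21.5, 31.8 and 407 CPM after LPS. The groups did not overlap, and replicate 3 was 15.3 times the mean of replicates 1 and 2 after LPS. Cxcl1 in CD18CD11c cKO BMDCs was at 3.17, 8.80 and 4.77 CPM without and at 139.5, 87.2 and 363 CPM with LPS. Here all LPS libraries were high, and replicate 3 was 3.20 times the mean of the other LPS libraries. The log2 fold change was 5.03 (SE 1.22, edgeR adjusted p = 0.0714) in CD18fl/fl and 5.11 (SE 0.72, edgeR adjusted p = 0.0210) in CD18CD11c cKO BMDCs. With the replicate block, Cxcl1 rose by 4.98 on the log2 scale in CD18CD11c cKO BMDCs (SE 0.62, edgeR adjusted p = 0.00356), and its value in CD18fl/fl BMDCs was 3.61 (SE 0.95, adjusted p = 0.0580). Without replicate 3 the values were 2.40 in CD18fl/fl and 4.13 in CD18CD11c cKO BMDCs, both past the threshold. Over all alternatives, the edgeR and DESeq2 adjusted p of Cxcl1 ranged from 1.84e-05 to 0.248 in CD18fl/fl and from 1.12e-15 to 0.0907 in CD18CD11c cKO BMDCs.

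Cxcl2, a further Cxcr2 ligand that neutrophils make as well, was at 17.8, 13.7 and 36.4 CPM in untreated and 45.3, 28.1 and 541 CPM in LPS-treated CD18fl/fl BMDCs. These groups overlapped, because the untreated replicate 3 exceeded the LPS-treated replicate 2. In CD18CD11c cKO BMDCs, 22.7, 14.6 and 15.8 CPM stood against 186, 104 and 399 CPM, without overlap. Cxcl2 rose in CD18CD11c cKO BMDCs (log2 fold change 3.68, SE 0.55, edgeR adjusted p = 0.0235, range over the alternatives 1.04e-10 to 0.101), while the value in CD18fl/fl BMDCs was 3.19 (SE 1.16, adjusted p = 0.160) without and 2.05 (SE 0.60, adjusted p = 0.0755) with the block. Without replicate 3, Cxcl2 in CD18fl/fl BMDCs passed the threshold at a log2 fold change of 1.22 (SE 0.24, edgeR adjusted p = 0.00144, range over the alternatives 0.00144 to 0.402). The summed neutrophil markers of the untreated CD18fl/fl replicate 1 library, the highest of all, went along with a Cxcl2 level between those of replicates 2 and 3.

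Cxcl3, the third of the tightly linked ELR genes, differed most between replicates. In untreated CD18fl/fl BMDCs it was at 1.69, 1.66 and 144 CPM, and replicate 3 was 86.1 times the mean of the others. After LPS the values were 20.5, 15.4 and 639.8 CPM. In CD18CD11c cKO BMDCs, 4.91, 2.63 and 38.7 CPM stood against 72.8, 51.3 and 349 CPM. Each library rose within its replicate number, but the untreated CD18fl/fl replicate 3 lay above replicates 1 and 2 with LPS, so that only the CD18CD11c cKO groups were separate. Without the block the log2 fold changes were 2.22 (SE 2.04, edgeR adjusted p = 0.545) and 3.35 (SE 1.21, adjusted p = 0.170), respectively. With the block, Cxcl3 rose by 2.97 in CD18fl/fl (SE 0.35, edgeR adjusted p = 0.00741, range over the alternatives 2.51e-06 to 0.755) and by 3.71 in CD18CD11c cKO BMDCs (SE 0.25, adjusted p = 0.00103, range 0.00103 to 0.371).

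Cxcl5, the ELR ligand that epithelial cells are known for, was absent or nearly so without LPS. CD18fl/fl libraries held 0, 0 and 3 reads and CD18CD11c cKO libraries 0, 0 and 0 reads. After LPS the counts were 38, 16 and 323 reads (1.22, 0.595 and 8.21 CPM) in CD18fl/fl and 154, 110 and 874 reads (6.24, 4.94 and 28.3 CPM) in CD18CD11c cKO BMDCs. The CD18CD11c cKO mean was at least 134-fold higher with LPS, taking 3 reads per library as the floor, or at least 57.1-fold without LPS-treated replicate 3. In CD18fl/fl BMDCs, the ratio of the summed and scaled counts was 146 (exact 95% interval 49.7 to 712, counting error only). It was 35.2 without LPS-treated replicate 3 and 94.8 without untreated replicate 2, and without untreated replicate 3, which held all 3 untreated reads, the mean was at least 42.2-fold higher. Because this gene passed the filter on low counts through the LPS-treated group alone, its fitted fold change is not given.

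Of the Cxcr3 ligands, Cxcl10 is the one most readily made by myeloid cells. It was at 1.11, 2.53 and 0.561 CPM in untreated and at 19.5, 25.0 and 105 CPM in LPS-treated CD18fl/fl BMDCs, without overlap. It rose by 5.16 on the log2 scale (SE 0.91, edgeR adjusted p = 0.0355), by 4.82 with the block (SE 0.87, edgeR adjusted p = 0.0226) and by 3.60 without replicate 3 (SE 0.35, edgeR adjusted p = 9.48e-06, range over the alternatives 1.15e-10 to 0.151). CD18CD11c cKO BMDCs had 2.06, 0.467 and 0.145 CPM without and 6.12, 25.0 and 69.8 CPM with LPS. These groups did not overlap either, although the untreated replicate 3 held 5 reads and replicate 1 held the least of the LPS libraries. Cxcl10 passed the filter there through the LPS-treated group alone, so its fitted fold change is not given.

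Cxcl9, an interferon-γ target, behaved unlike Cxcl10 in replicate 3. LPS-treated CD18fl/fl libraries held 439, 853 and 28 reads (14.1, 31.7 and 0.712 CPM) and LPS-treated CD18CD11c cKO libraries 47, 260 and 23 reads (1.90, 11.7 and 0.745 CPM). Untreated libraries held 0, 8 and 0 reads in CD18fl/fl and none in CD18CD11c cKO BMDCs. Thus replicate 3, the highest for Cxcl10 in both LPS groups, was the lowest for Cxcl9. Per length, the Cxcl10 level was 2.63, 1.5 and 282 times that of Cxcl9 in the LPS-treated CD18fl/fl libraries and 6.11, 4.06 and 178 times in the LPS-treated CD18CD11c cKO libraries. Against untreated cells, the ratio of summed and scaled counts in CD18fl/fl was 192 (exact 95% interval 97.2 to 446, counting error only), and in CD18CD11c cKO BMDCs the mean was at least 48.8-fold higher with LPS (floor of 3 reads per library). Without LPS-treated replicate 2 these values were 93.9 and at least 13.5-fold, and without LPS-treated replicate 3 the CD18fl/fl ratio was 315.

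Cxcl11 held 3, 0 and 0 reads in untreated CD18fl/fl and no reads in untreated CD18CD11c cKO BMDCs. After LPS there were 89, 95 and 23 reads (2.86, 3.53 and 0.585 CPM) and 72, 171 and 89 reads (2.92, 7.68 and 2.88 CPM), respectively. Replicate 3 was the lowest library after LPS in CD18fl/fl BMDCs, whereas in CD18CD11c cKO BMDCs replicates 1 and 3 were nearly level. The ratio against untreated CD18fl/fl was 80.3 (exact 95% interval 27.1 to 393, counting error only), and in CD18CD11c cKO BMDCs the mean was at least 45.9-fold higher with LPS (floor of 3 reads per library). The CD18fl/fl ratio was 52.1 without untreated replicate 2, and without untreated replicate 1, which held all 3 untreated reads, the mean was at least 29.9-fold higher. Without LPS-treated replicate 2 the CD18CD11c cKO bound was 29.6-fold.

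Cxcl16, the ligand of Cxcr6, was at 817, 755 and 269 CPM in untreated and at 2558, 2801 and 809.5 CPM in LPS-treated CD18fl/fl BMDCs. In CD18CD11c cKO BMDCs, 1014, 971 and 383 CPM stood against 2844, 2679 and 1121 CPM. Replicate 3 was the lowest library in every group, which made the CD18fl/fl groups overlap, while the rise was much alike within each replicate number. Without the block, the log2 fold changes of 1.75 (SE 0.60, edgeR adjusted p = 0.144) and 1.43 (SE 0.47, adjusted p = 0.142) missed the threshold. With the block, Cxcl16 rose by 1.72 in CD18fl/fl (SE 0.20, edgeR adjusted p = 0.00746, range over the alternatives 1.77e-05 to 0.383) and by 1.45 in CD18CD11c cKO BMDCs (SE 0.17, adjusted p = 0.00298, range 0.000201 to 0.362).

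In counts over the genes, Cxcl5, Cxcl9 and Cxcl11 passed the filter only through their LPS groups and had to differ, as did Cxcl10 in CD18CD11c cKO BMDCs. Of the 5 remaining in CD18fl/fl BMDCs, 1 rose without the block (Cxcl10), where 2.06% of the 12744 genes tested rose, 3 rose with the block (Cxcl3, Cxcl10 and Cxcl16), where 6.33% did, and 5 rose without replicate 3, where 23.2% did. Of the 4 remaining in CD18CD11c cKO BMDCs, 2 rose without the block (Cxcl1 and Cxcl2), where 2.23% of the 12687 genes tested rose, and 4 rose with the block, where 10.2% did, and without replicate 3, where 7.93% did. DESeq2 gave an adjusted p for 2 of the 5 in CD18fl/fl, Cxcl10 and Cxcl16, and both rose, where 6.91% of its tested genes did. In CD18CD11c cKO BMDCs, DESeq2 called 3 of the 4 (not Cxcl3), against 5.44% of genes. Values after LPS lay above all untreated values for 2 of 5 genes in CD18fl/fl (13.6% of genes tested) and 4 of 4 in CD18CD11c cKO BMDCs (14.8%). The split between the LPS-induced and LPS-reduced calls among all genes depended on the scaling, with 53.0% of calls higher after TMM and 32.0% after library size scaling in CD18fl/fl and 55.9% and 38.3% in CD18CD11c cKO BMDCs, while these 5 and 4 chemokines kept positive values under both.

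**Figure D2:**
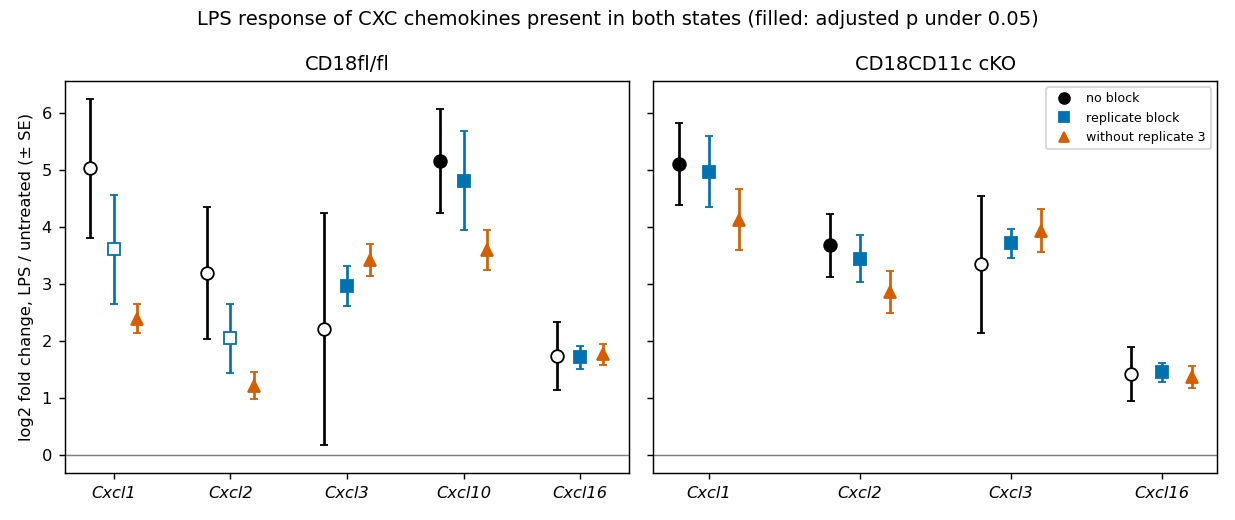
Log2 fold change of LPS-treated against untreated BMDCs (vertical axis, bars are SE) for the CXC chemokines that passed the low-count filter in both states, in CD18fl/fl (left) and CD18CD11c cKO BMDCs (right). Circles are edgeR without block, squares with the replicate block and triangles without replicate 3, and filled symbols have an adjusted p under 0.05. The error of Cxcl3 shrinks from 2.04 to 0.35 in CD18fl/fl BMDCs once the block is used.

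The make-up of the CXC chemokine mRNA differed between replicate 3 and the other libraries within every group. Cxcl16 made up 94.8%, 94.3% and 37.5% of the summed level per length in untreated CD18fl/fl and 94.5%, 94.7% and 73.3% in untreated CD18CD11c cKO BMDCs. In LPS-treated CD18fl/fl BMDCs its share was 91.6%, 91.8% and 17.4%, and the ELR ligands held 6.57%, 5.66% and 78.5%. In LPS-treated CD18CD11c cKO BMDCs the ELR ligands held 23.3%, 16.5% and 67.4%. In replicates 1 and 2, the ELR share after LPS was thus higher in CD18CD11c cKO than in CD18fl/fl BMDCs, and in replicate 3 it was lower. The Cxcr3 ligands made up at most 4.05% of any library. The total level per length was 266 to 319 CPM per kb in untreated and 1034 to 1723 in LPS-treated CD18fl/fl libraries, and 194 to 398 and 1216 to 1419 in the CD18CD11c cKO libraries.

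**Figure D3:**
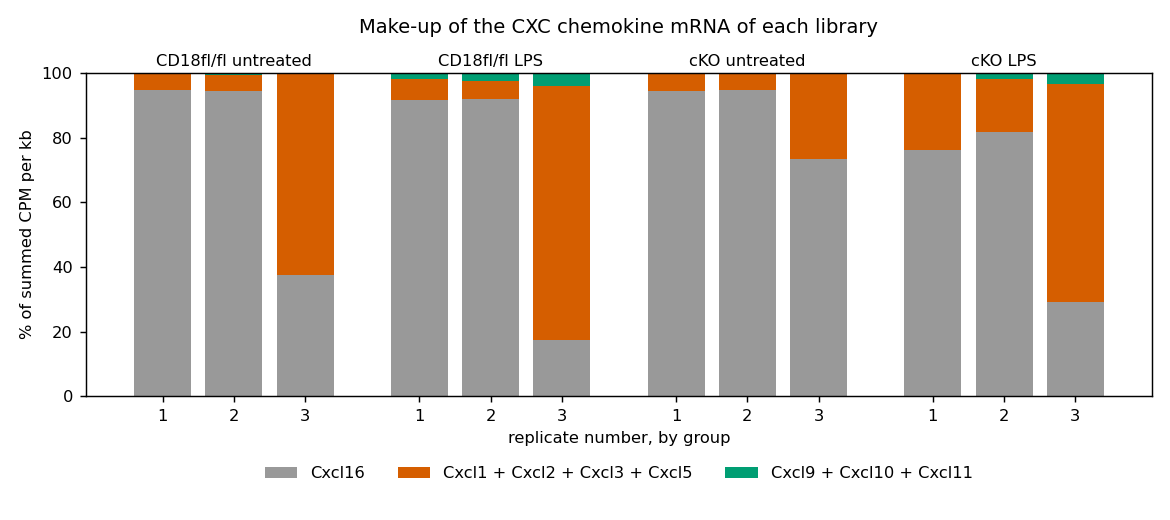
Share of Cxcl16 (grey), the ELR ligands (orange) and the Cxcr3 ligands (green) in the summed CPM per kb of the 8 CXC chemokines (vertical axis, percent), with a bar for each library (horizontal axis, replicate number within group). The ELR share in LPS-treated replicate 3 is 78.5% in CD18fl/fl and 67.4% in CD18CD11c cKO BMDCs.

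In untreated BMDCs, the genotypes were compared to see which chemokines depend on CD18 at rest. No member differed past the threshold. Cxcl5, Cxcl9 and Cxcl11 did not pass the filter, having 3 to 8 reads over the CD18fl/fl libraries and 0 over the CD18CD11c cKO libraries, which allows up to 3 reads in each. Cxcl10 passed it through the CD18fl/fl group alone. Of the 4 members that passed it through both groups, 0 had an adjusted p under 0.05 with edgeR and 0 an unadjusted p under 0.05, compared with 0 and 2159 of all 12876 genes, respectively. DESeq2 called 0 of the 3 members for which it gave an adjusted p and 6.03% of its tested genes. With the block, 0 of 4 members were called, where 20.2% of the genes tested were, and 0 of 4 without replicate 3, where 10.6% were. None of the 4 had groups without overlap, compared with 24.8% of the genes tested. Cxcl16 was higher in CD18CD11c cKO BMDCs in each of the 3 pairs (1.24, 1.29 and 1.43 times), as were 24% of all genes tested, and its log2 difference with the block was 0.45 (SE 0.14, edgeR adjusted p = 0.0565, range over the alternatives 0.0565 to 0.996). Cxcl3 was 2.90 and 1.59 times the CD18fl/fl level in pairs 1 and 2 and 0.268 times in pair 3. Its log2 difference was -1.58 (SE 1.79, edgeR adjusted p = 0.704) without and 0.02 (SE 0.57, adjusted p = 0.983) with the block, and 1.22 (SE 0.49, adjusted p = 0.141, range over the alternatives 0.141 to 0.983) without replicate 3. For Cxcl1 (0.30, SE 0.44) and Cxcl2 (-0.29, SE 0.39), the log2 difference was smaller than its SE, and both took the other sign in some alternative (Cxcl1 under library size scaling and a length offset, Cxcl2 without replicate 3).

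After LPS, the genotypes were compared to see which chemokines depend on CD18 in stimulated cells. Cxcl5 was the member called with the block. It was higher in CD18CD11c cKO BMDCs in each pair, by 5.11, 8.30 and 3.45 times, as were Cxcl11 and 23.1% of the genes tested. The groups overlapped without regard to pairs, since replicate 3 of CD18fl/fl (8.21 CPM) lay above replicates 1 and 2 of CD18CD11c cKO (6.24 and 4.94 CPM). Its log2 difference was 1.95 (SE 1.11, edgeR adjusted p = 0.635) without and 2.29 (SE 0.30, adjusted p = 0.00874) with the block, and it was 2.58 (SE 0.51, adjusted p = 0.0367) without replicate 3. Over 19 alternatives the value stayed positive, from 0.67 to 3.84, with an adjusted p between 0.00874 and 0.934 and 5 calls. DESeq2 without a block gave an adjusted p of 0.448.

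The other ELR ligands were higher in CD18CD11c cKO BMDCs in pairs 1 and 2 and lower in pair 3. Cxcl1 was at 6.49, 2.74 and 0.890 times, Cxcl2 at 4.10, 3.71 and 0.738 times and Cxcl3 at 3.55, 3.33 and 0.546 times the CD18fl/fl level. The log2 differences without the block were 0.33 (SE 1.14), 0.14 (SE 1.11) and -0.54 (SE 1.45), and with the block they were 1.30 (SE 0.48, edgeR adjusted p = 0.133), 1.17 (SE 0.47, adjusted p = 0.157) and 0.90 (SE 0.52, adjusted p = 0.303). Without replicate 3 all of these genes were higher in CD18CD11c cKO BMDCs, by 2.06 (SE 0.29, edgeR adjusted p = 0.0258), 1.95 (SE 0.33, adjusted p = 0.0270) and 1.75 (SE 0.25, adjusted p = 0.0258), and over all alternatives the adjusted p reached 1.00 for each. With a single library per group in replicate 3, the difference between the pairs could not be tested. Macrophage markers summed to 801 to 1013 CPM in LPS-treated CD18fl/fl and to 423 to 775 CPM in LPS-treated CD18CD11c cKO BMDCs, and their part in these differences was not tested.

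None of the Cxcr3 ligands passed the threshold between the genotypes with the TMM-scaled block. Cxcl9 was at 0.135 and 0.368 times the CD18fl/fl level in pairs 1 and 2 and at 1.05 times in pair 3, where both libraries held under 30 reads. Its log2 difference was -1.73 (SE 1.35, edgeR adjusted p = 0.733) without and -1.60 (SE 0.49, adjusted p = 0.0848) with the block, and it passed the threshold with library size scaling and the block combined (-1.84, adjusted p = 0.0412, range over the alternatives 0.0412 to 0.936). Cxcl10 was at 0.313, 0.998 and 0.662 times the CD18fl/fl level (log2 difference with the block -0.76, SE 0.30, edgeR adjusted p = 0.15, range over the alternatives 0.0541 to 1.00). Cxcl11 was at 1.02, 2.17 and 4.93 times (1.09, SE 0.51, edgeR adjusted p = 0.212, range 0.189 to 1.00). Cxcl16 was at 1.11, 0.957 and 1.38 times, and its log2 difference of 0.16 (SE 0.15, edgeR adjusted p = 0.536, range 0.440 to 1.00) with the block was about as large as its SE.

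Of the 8 members, 0 were called between the genotypes after LPS by edgeR without the block, and 0 had an unadjusted p under 0.05, compared with 0 and 1212 of all 12441 genes tested. DESeq2 called 0 of 7 members, 1 of them (Cxcl5) with an unadjusted p under 0.05, and 1.3% of its tested genes. With the block, 1 of 8 members was called, where 10.1% of the genes tested were. Without replicate 3, 4 of 8 were higher, where 3.24% of the genes tested were. No member had groups without overlap, compared with 17.6% of all genes. The interaction of genotype and LPS was tested on all 12 libraries, and 0 of 8 members and 0 of 13752 genes were called, with 0 members and 97 genes at an unadjusted p under 0.05, while DESeq2 also called 0 of 20496 genes (209 at an unadjusted p under 0.05). Cxcl5, Cxcl9 and Cxcl11 held at most 8 reads in any untreated library and passed the filter through their LPS-treated groups alone. Their interaction thus rests on reads near the floor and carries no weight. Among them, Cxcl5 alone had an unadjusted p under 0.05 with the block, and it was not called. Without replicate 3, Cxcl1 and Cxcl2 had an unadjusted p of 0.0120 and 0.00483 (edgeR adjusted p = 0.674 for both).

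**Figure D4:**
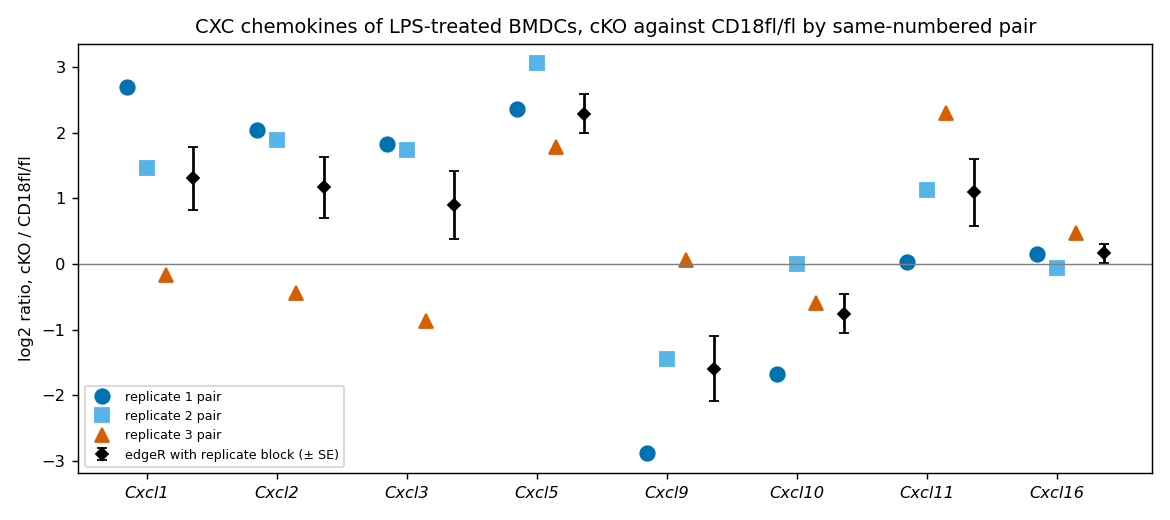
Log2 ratio of LPS-treated CD18CD11c cKO to CD18fl/fl BMDCs (vertical axis) for each CXC chemokine (horizontal axis). Circles, squares and triangles are the same-numbered pairs 1, 2 and 3, and diamonds give the edgeR estimate with the replicate block and its SE. Cxcl5 lies above 0 in every pair, whereas Cxcl1, Cxcl2 and Cxcl3 lie above 0 in pairs 1 and 2 and below 0 in pair 3.

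Genes of the same pathways were counted by fixed lists. Of 7 other CXC ligands, only the platelet chemokines Pf4 (16.1 to 145 CPM) and Ppbp (0.122 to 16.0 CPM) passed the filter, and the homeostatic ligands Cxcl12, Cxcl13 and Cxcl14 had at most 0.667 CPM in any library. Neither Pf4 nor Ppbp was called by edgeR in any of the comparisons without or with the block, with 0 at an unadjusted p under 0.05 without it, and DESeq2 called 0 of the list. Without replicate 3, both fell with LPS in CD18fl/fl BMDCs (edgeR adjusted p = 0.00393 and 0.000402), where 24.3% of the genes tested fell. Among 8 CXC receptors, Cxcr4, the receptor of Cxcl12, was the most abundant by CPM. Its values after LPS were 411, 395 and 19.5 CPM in CD18fl/fl and 1020.2, 543.5 and 41.4 CPM in CD18CD11c cKO BMDCs, against 88.5, 65.5 and 37.5 and 148, 142 and 49.5 CPM without LPS. Replicate 3 was again the exception, with less Cxcr4 after LPS than before. With the block, Cxcr4 was higher in CD18CD11c cKO than in CD18fl/fl BMDCs without LPS (0.81, SE 0.17, edgeR adjusted p = 0.0170) and with it (0.93, SE 0.19, adjusted p = 0.0273). Without replicate 3 it was called higher without LPS but not with it (edgeR adjusted p = 0.0308 and 0.102), and Cxcr5 was lower in CD18CD11c cKO BMDCs after LPS (-1.42, SE 0.25, edgeR adjusted p = 0.0295). Cxcr5, the receptor of Cxcl13, rose with LPS and the block in both genotypes (2.27, SE 0.36, edgeR adjusted p = 0.0152, and 1.43, SE 0.34, adjusted p = 0.0275). Without the block, edgeR called 0 receptors in any comparison, with 1 and 2 at an unadjusted p under 0.05 for LPS in CD18fl/fl and CD18CD11c cKO BMDCs, respectively. DESeq2 called 1 higher and 1 lower in CD18fl/fl and 2 higher and 1 lower in CD18CD11c cKO BMDCs. Of all genes it tested, 969 were higher and 825 lower of 14030, and 776 and 756 of 14252, respectively. The receptors for the ligands described here were scarce. Cxcr2 reached 5.35 CPM in untreated CD18fl/fl replicate 1, the library with the most neutrophil marker mRNA, and had at most 1 read in any LPS-treated library, while Cxcr3 and Cxcr6 reached at most 0.434 and 1.2 CPM.

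The 6 proteases that cleave chemokines were all tested. With LPS, 1 of 6 fell in each genotype, where 1.83% and 1.76% of the genes tested fell, and 2 and 3 of 6 fell with the block, where 6.43% and 9.93% did. Mmp8, the neutrophil collagenase, fell in both genotypes, by 2.44 on the log2 scale in CD18fl/fl (SE 0.51, edgeR adjusted p = 0.0487) and by 1.98 in CD18CD11c cKO BMDCs (SE 0.42, adjusted p = 0.0473). Adam10, which sheds Cxcl16, fell with the block in CD18CD11c cKO BMDCs (-1.17, SE 0.20, adjusted p = 0.00979) and had an adjusted p of 0.0501 in CD18fl/fl BMDCs (-1.12, SE 0.28), where it was called lower by DESeq2 and by edgeR without replicate 3. Dpp4, which trims the Cxcr3 ligands, fell with the block in CD18CD11c cKO BMDCs after LPS (-0.91, SE 0.23, edgeR adjusted p = 0.0328). Between untreated genotypes, the block called Adam17, Dpp4, Mmp12 and Mmp8, 2 higher and 2 lower, where 12.1% and 8.16% of the genes tested were. After LPS, Mmp12 was called higher with the block and without replicate 3, where 6.98% and 3.24% were. Without the block, edgeR and DESeq2 called 0 proteases between the genotypes in either state, as did edgeR without replicate 3 in untreated BMDCs. Of the 11 NF-κB and mRNA decay genes, 0 were called by edgeR with LPS without the block in either genotype (4 in each at an unadjusted p under 0.05), while DESeq2 called 3 in CD18fl/fl and 2 in CD18CD11c cKO BMDCs. Of all genes DESeq2 tested, 969 were higher and 825 lower of 14030, and 776 and 756 of 14252, respectively. With the block 1, the NF-κB subunit Rel, rose in both, where 6.33% and 10.2% of the genes tested rose. Between the genotypes with the block, 4 of the 11 (Rela, Zfp36, Zfp36l1 and Zfp36l2) were lower in CD18CD11c cKO BMDCs without LPS and 1 (Zfp36) with it, where 8.16% and 3.16% of the genes tested were lower. Zfp36 (tristetraprolin), a decay factor that shortens the life of AU-rich mRNAs, had differences of -0.90 (SE 0.15, edgeR adjusted p = 0.00901) and -0.76 (SE 0.14, adjusted p = 0.0198), and after LPS 0 of the 11 were called by DESeq2, or by edgeR without the block or without replicate 3 (1, 1 and 3 at an unadjusted p under 0.05). Nfkbiz, a cofactor of late NF-κB targets, was at 13.5, 17.6 and 104 CPM after LPS in CD18fl/fl and at 12.2, 14.5 and 78.0 CPM in CD18CD11c cKO BMDCs, so that replicate 3 was high for it as for the ELR ligands.

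Of 12 genes of the interferon branch, 2 of 11 tested rose with LPS in CD18fl/fl BMDCs without the block (Irf7 and Stat2) and 4 of 12 in CD18CD11c cKO BMDCs (Ifnb1, Irf7 and Stat2 among them), where 2.06% and 2.23% of all genes tested rose. Ifnb1 had the same lowest log2 level in all untreated CD18CD11c cKO libraries. It passed the filter there through the LPS-treated group alone and had to differ. With the block the counts were 6 higher and 1 lower, and 9 higher and 1 lower, where 6.33% and 10.2% of all genes were higher and 6.43% and 9.93% lower, and the lower gene was Ifngr1, a subunit of the interferon-γ receptor, in both. The median log2 fold change of the list was 1.36 and 1.17, compared with -0.02 and -0.01 for all genes. Irf1 and Irf8 were, like Cxcl9, lowest in replicate 3, with Irf1 at 354, 389.8 and 115 CPM and Irf8 at 4862, 4014 and 649 CPM in LPS-treated CD18fl/fl BMDCs. Of 19 CC chemokines, the other main chemokine family, 13 were tested in CD18fl/fl and 14 in CD18CD11c cKO BMDCs, and edgeR called 0 with LPS without the block in either (4 and 3 at an unadjusted p under 0.05), while DESeq2 called 3 in each. Of all genes DESeq2 tested, 969 were higher and 825 lower of 14030, and 776 and 756 of 14252, respectively. With the block, Ccl5 and Ccl17 rose and Ccl6 fell in both genotypes, where 6.33% and 10.2% of all genes were higher and 6.43% and 9.93% lower. The median log2 fold change of the CC list was 1.23 and 0.87 without and 0.52 and 0.57 with the block. Between the genotypes after LPS, the block gave 3 CC chemokines higher in CD18CD11c cKO BMDCs (Ccl6, Ccl9 and Ccl17), where 6.98% of the genes tested were higher, and 1 lower (Ccl5), where 3.16% were lower.

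For each member, the 3 other genes with the most similar course were taken by the root mean square (RMS) difference of log2 CPM, centred on each gene's mean, over the 12 libraries among 13752 genes. This is a description in which all libraries, replicate 3 included, weigh equally. Cxcl16 had the closest neighbours, Marchf5, Arl5c and Dok1 (RMS difference 0.238, 0.252 and 0.255). Cxcl11 was nearest to Ifnb1, the interferon-β gene (0.519), Phf11d and Saa3. Cxcl10 was nearest to the interferon-stimulated genes Ifit1 (1.02), Ifit2 and Ifi206. Cxcl9 was nearest to Cfap52 (1.10), Vil1 and Larp6. No member shared any of its neighbours with another member. Among the ELR ligands, Cxcl1 was nearest to Pla1a (0.799), Timp1 and Coch, Cxcl2 to Il36a (0.682), Cd80 and Gm14636, Cxcl3 to Inhba (0.801), Ccnd2 and Upp1, and Cxcl5 to Tnfsf15 (1.03), Nts and Il6. Between members, Cxcl1 and Cxcl2 differed least (1.03), and Cxcl3 and Cxcl9 differed most (3.68). For genes with few reads, the values at 0 are set by the prior count of 2 used for logarithms.

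**Figure D5:**
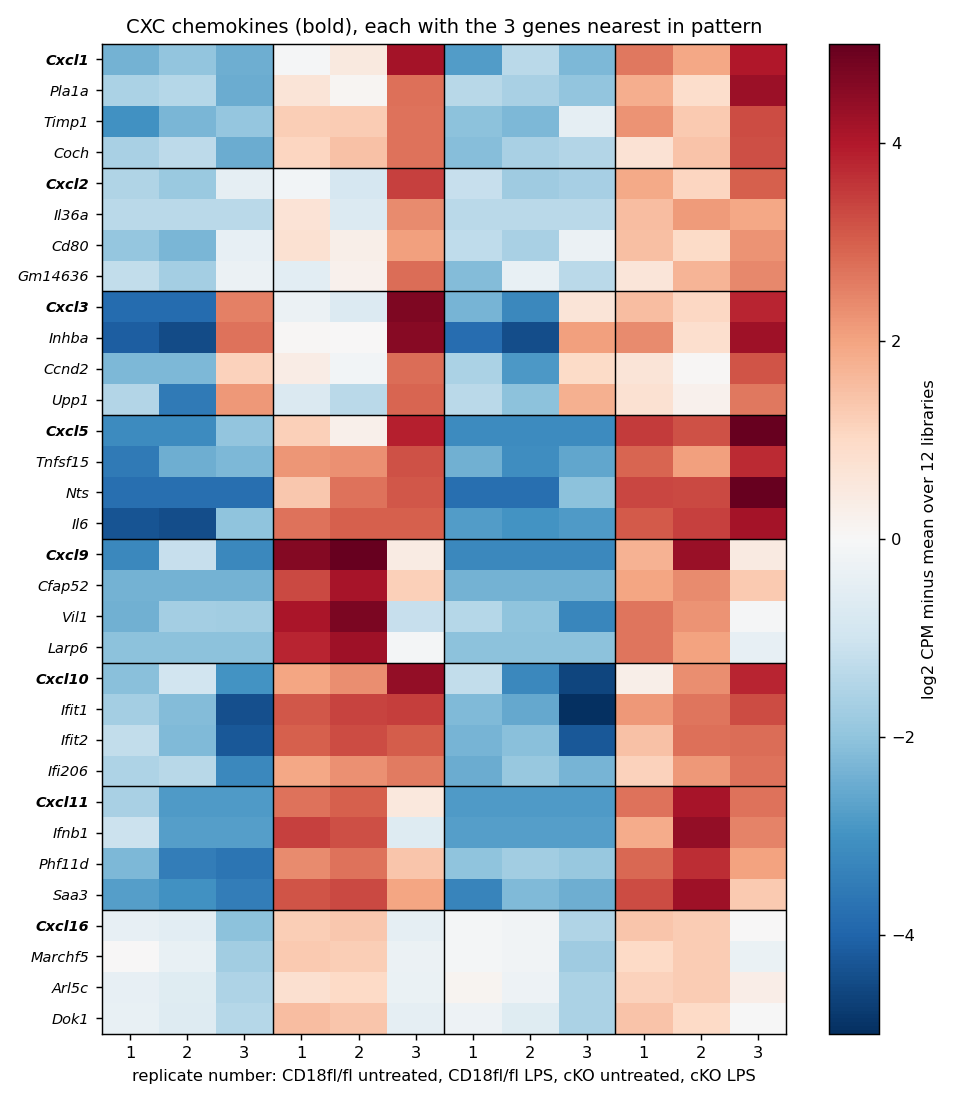
Log2 CPM minus the gene's mean over the 12 libraries (colour scale, blue low and red high) for each CXC chemokine (bold) and the 3 genes nearest to it in pattern (rows), in the libraries of the 4 groups (columns, replicate number). Cxcl3 and its neighbours are high in replicate 3 also without LPS, whereas Cxcl9 and its neighbours are high in replicates 1 and 2 after LPS.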

How the data were processed

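Libraries of MHCII+ BMDCs were poly(A)-selected. The authors mapped reads in CLC Genomics Workbench to GRCm39 (the labels name GRCm38, but gene positions in the tables are those of GRCm39) and deposited raw counts per gene, of which total gene reads were used. Each file holds 1 library. Groups and replicate numbers come from the labels. Where nothing states separate cultures, p-values measure only the spread between these libraries.

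Genes passing edgeR's filter (minimum count 10) were tested with edgeR 4.0.16 (R 4.3.3), TMM normalization, the quasi-likelihood test and Benjamini-Hochberg adjustment over all genes, at a threshold of 0.05, and the SE is the log2 fold change divided by the square root of F. The interaction used 12 libraries and other comparisons 6. Deviations of same-numbered libraries from their group means correlated across 13752 genes in all 12 pairs (r = 0.265 to 0.716). Between different numbers r was -0.571 to 0.334. All negative values involved replicate 3, whereas replicates 1 and 2 also correlated with each other. In CD18fl/fl BMDCs, LPS-treated replicate 2 had r = 0.278 with untreated replicate 1 and 0.265 with untreated replicate 2. These values set replicate 3 apart but do not show that numbers 1 and 2 mark pairs. Taking the numbers as pairs in the replicate block is thus an assumption. No library was a copy of another (66 pairs). The members and gene lists were chosen with earlier results of these data known. Named genes were the 8 members, Itgb2, the lists and, for each member, 3 genes nearest in pattern. Promoters and motifs were read from RefSeq sequences of GRCm38.p6. Scripts were tested on simulated data. Alternatives were the replicate block, DESeq2 1.42.0, RLE size factors, library size, no filter, a minimum count of 30, unique gene reads, an offset for gene length (lowess, span 0.3), all 12 libraries in a fit, and each library or replicate 3 left out. The block combined with library size or with all 12 libraries, and folds against groups near 0 reads with a library left out, were added after the values were seen. A gene of the interferon list is not reported here by name.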

Additional observations from a re-analysis of the deposited data

Results flagged for a closer look

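Reads in introns were not used on their own in the comparisons. For 2 chemokines, every LPS-treated library of 1 genotype lay above all untreated libraries. The lowest LPS-treated library had 6.91 CPM of intron reads for Cxcl16 in CD18fl/fl and 4.17 CPM for Cxcl1 in CD18CD11c cKO BMDCs. In the other genotype this did not hold. LPS-treated CD18CD11c cKO replicate 3 had 5.11 CPM for Cxcl16, against 5.41 CPM in untreated replicate 1. For Cxcl1, LPS-treated CD18fl/fl replicate 1 had 0.963 CPM, against 1.38 CPM in untreated replicate 2. How many of all genes meet this rule is not given here. Introns held 1.91% to 2.30% of all gene reads in untreated and 2.39% to 4.54% in LPS-treated libraries. Intron reads made up 0.747% of the Cxcl16 reads in LPS-treated and 0.565% in untreated CD18fl/fl BMDCs. For Cxcl1 the share was 2.33% with and 27.6% without LPS in CD18CD11c cKO BMDCs, and 2.69% and 26.2% in CD18fl/fl BMDCs, so its intron share was lower in the LPS-treated groups. No difference in response between the genotypes met the criteria for a closer look, and groups of 3 libraries were not examined for single outliers.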

How the results depend on the processing

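The replicate block, replicate 3 and the tool decided most calls. Of the 8 members, 1 was called with LPS in CD18fl/fl BMDCs, and 6 with the block, the block and length offset, or the block and library size, 5 with DESeq2, no filter or all 12 libraries, and 8 with all 12 libraries and the block. In CD18CD11c cKO BMDCs, 4 became 8 with the block in each of its 4 forms and 7 with DESeq2. With no filter Cxcl9 and Cxcl10 were called in addition to these 4. They were called with all 12 libraries too, where Cxcl2 was not (edgeR adjusted p = 0.0510). Between the genotypes after LPS, 0 became 1 with the block, the block and length offset or the block on all 12 libraries, and 2 with the block and library size. Leaving out 1 library or replicate 3 gave 0 to 8 calls with LPS in each genotype and 0 to 4 between the genotypes after LPS. The CD18fl/fl count fell to 0 without any single library but LPS replicate 3, and the CD18CD11c cKO count to 0 without replicate 1 or 2 of either group. Calls over all genes fell as well. In CD18fl/fl they were 0 without replicate 1 or 2 of either group, and 252 higher and 254 lower without untreated replicate 3. In CD18CD11c cKO BMDCs they were 0 without untreated replicate 1, and 3 higher and 1 lower without untreated replicate 2. They were 21 and 5 without LPS replicate 1, and 2 and 0 without LPS replicate 2. The cause was not tested. The LPS counts include Cxcl5, Cxcl9 and Cxcl11, and in CD18CD11c cKO BMDCs Cxcl10, which had to differ. Among the others they were 1, 3 with the block and 2 with DESeq2 of 5 in CD18fl/fl, and 2, 4 and 3 of 4 in CD18CD11c cKO BMDCs. Of all genes tested, 2.06%, 6.33% and 6.91% rose in CD18fl/fl in these settings, and 2.23%, 10.2% and 5.44% in CD18CD11c cKO BMDCs. Counts between untreated genotypes and for the interaction were 0 in all settings. The block changed no other count of members called.

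Log2 values that changed sign were not past the threshold before. Between untreated genotypes, Cxcl1 was -0.34 with the length offset, -0.10 with library size, -0.20 with library size and block and -0.44 with block and length offset, and Cxcl3 was 0.022 with the block. After LPS, Cxcl1 was -0.23 and Cxcl2 -0.043 with the length offset, and with library size Cxcl1 was -0.012, Cxcl2 -0.21 and Cxcl16 -0.15 (-0.092 with the block). Cxcl3 was 0.90 with the block alone, and with the block it was 0.46 with length offset, 0.65 with library size and 1.13 on 12 libraries. The interaction of Cxcl10 was -0.010 with the block. With libraries left out, ranges were -1.43 to 7.08 for Cxcl3 with LPS in CD18fl/fl. Between untreated genotypes they were -0.22 to 0.58 (Cxcl1), -0.55 to 0.31 (Cxcl2), -3.62 to 3.24 (Cxcl3) and -2.13 to 0.13 (Cxcl10). After LPS they were -0.50 to 2.86 (Cxcl1), -0.56 to 2.63 (Cxcl2), -1.93 to 3.13 (Cxcl3), -1.75 to 0.58 (Cxcl10) and -0.33 to 0.38 (Cxcl16). For the interaction they were -0.68 to 2.56 (Cxcl1), -0.15 to 2.91 (Cxcl2), -3.73 to 4.71 (Cxcl3), -1.81 to 3.58 (Cxcl9), -1.02 to 1.64 (Cxcl10) and -0.76 to 0.059 (Cxcl16). The Cxcl9 value of -1.81 (SE 5058) came without untreated CD18fl/fl replicate 2, which held all untreated Cxcl9 reads, so it is not a usable estimate. Library size scaling moved the median of all genes by -0.31 and -0.21 with LPS in CD18fl/fl and CD18CD11c cKO BMDCs and by -0.39 and -0.26 between genotypes without and with LPS. Depth limits Cxcl5, Cxcl9 and Cxcl11 without LPS, where 3 reads per library is the floor.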

Other observations

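Intron shares of the other ELR ligands were also lower after LPS in some groups. Cxcl2 had 7.06% of its reads in introns in untreated and 1.90% in LPS-treated CD18fl/fl BMDCs, and 7.15% and 0.717% in CD18CD11c cKO BMDCs. For Cxcl3, the shares were 1.05% and 1.23% in CD18fl/fl and 1.8% and 0.561% in CD18CD11c cKO BMDCs. Cxcl9 and Cxcl11 had 0 intron reads in any group. These values were not tested.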
